A study of Mus musculus with 24 samples.

Results

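The genes described here are 41 members of the DNA replication and S phase machinery of the mouse, out of 14557 named genes with epithelial counts. They were taken by symbol from the transcript count table. All 41 were listed, with 228 transcripts between them of 71081. A gene stands here for the transcript of it that had most counts on average in the 12 epithelial libraries, and all 41 were among the 13759 genes that passed the filter on low counts and were tested.

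The libraries came from lung organoids, three-dimensional cultures in which primary lung epithelial cells grow with fibroblasts in Matrigel. Each well held 200000 EpCAM-positive cells from wild-type female C57BL6 mice and 200000 CCL206 cells, a fibroblast line derived from a male ddY mouse. The 3 groups were control wells with 0 fibers, wells with 12000 nylon 6,6 fibers and wells with 30000, mixed in before seeding. The fibers measured 12 by 31 micrometers. After 7 days the EpCAM-positive fraction was recovered with magnetic beads, and 300 ng of its RNA was sequenced. Each group had 4 libraries, 1 for each of the same 4 mice, and the fibroblasts in every well came from the single line. The comparisons ask whether fibers changed the transcripts of the replication machinery in the recovered epithelial fraction, and whether the change differed between the fiber numbers.

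The transcripts that stand for all 14557 named genes held 7204371 to 9743738 counts per control library. They held 6878550 to 10583357 counts per library with 12000 fibers and 2799765 to 3723250 counts with 30000 fibers. Mitochondrial genes took 5.20 to 7.77% of the counts in controls, 5.33 to 6.91% with 12000 fibers and 14.3 to 16.3% with 30000 fibers. Epcam, the surface protein used for recovery, had 650.3 ± 64.5 CPM in the controls, 484 ± 14.9 CPM at 12000 fibers and 239 ± 36.8 CPM at 30000 fibers (SD, n = 4 each). The 16 pan-epithelial genes summed to 9430 to 10983 CPM in controls (CPM are counts scaled to a library total of 1000000), 9105 to 10148 CPM with 12000 fibers and 4873 to 5671 CPM with 30000 fibers. Of these 16 genes, 3 were called higher and 8 lower at 12000 fibers, and 1 was called higher and 13 lower at 30000 fibers, both against control. For this and the lists below, 18.7% of all tested genes were called higher and 19.3% lower at 12000 fibers. At 30000 fibers 32.2% were called higher and 33.4% lower, so small counts there can lie near the share of all genes. The 21 tested fibroblast genes, none of them at 0 in any library, summed to 8723 to 13810 CPM, 16055 to 17518 CPM and 15447 to 18501 CPM in the same order. All 21 were called higher at 12000 fibers and 20 were called higher at 30000 fibers, both against control. The 9 tested airway basal cell genes summed to 2186 to 3583 CPM in controls, 476 to 655 CPM with 12000 fibers and 253 to 329 CPM with 30000 fibers, and all 9 were called lower at each fiber number. The 12 airway secretory and ciliated genes summed to 1136 to 2697 CPM, 73.9 to 122 CPM and 241 to 357 CPM in the same order, and 11 of the 12 were called lower at each fiber number. At 30000 fibers the remaining 1 was called higher, with a log2 fold change of 4.15 against control. The 10 alveolar type 2 genes summed to 1877 to 3929 CPM, 3607 to 6396 CPM and 4459 to 6590 CPM, with 1 called higher at 12000 fibers and 6 higher and 2 lower at 30000 fibers. Of 7 tested alveolar type 1 genes 3 were called lower at each fiber number. The 4 tested of 8 immune cell genes summed to 72.8 to 178 CPM, 161 to 285 CPM and 293 to 462 CPM, with 1 called higher at 12000 fibers and 3 at 30000 fibers. One of those 3, Lyz2, is also among the 10 alveolar type 2 genes, so the 2 lists are not separate. Of 3 tested endothelial and mesothelial genes 1 was called lower at 12000 fibers and 2 at 30000 fibers. The part that these shifts have in any change of a replication gene was not tested, and in bulk RNA fewer cells of a type and less RNA per cell cannot be told apart.

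In G1 the origin recognition complex, with Cdc6 and Cdt1, loads the ring of 6 MCM proteins onto DNA. At the start of S phase Cdc45 and the GINS proteins join the ring and turn it into the working helicase. The single strands that it exposes are coated by RPA, primed by primase with polymerase alpha and copied by polymerases delta and epsilon, which are held on the template by the PCNA clamp. Fen1 and Lig1 then finish the lagging strand, ribonucleotide reductase and the thymidylate enzymes supply nucleotides, and CAF-1 places histones on the copies. Many of these genes are transcribed under E2F factors at the passage into S phase, so their transcripts are commonly read as a measure of how many cells are cycling.

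RefSeq promoter windows, 250 bases before to 50 bases after the start of a transcript on GRCm38.p6 (the assembly of mm10), were matched for 34 of the 41 members. An E2F-like motif (TTTNNCGC, or GCGNNAAA on the other strand) was in 14 of the 34 windows, 41.2%, against 9.6% of the 10521 tested genes with a window. A CCAAT box (CCAAT, or ATTGG on the other strand) was in 22 of the 34, 64.7%, against 42.9% of the tested genes. The 250 bases before the RefSeq start are printed for 5 members, 5′ to 3′ on the gene's strand, with either motif in capitals. That start need not be the start of the transcript counted here. The counted transcript of Cdc6 starts upstream, at base 98907801, so the printed Cdc6 window lies within its span. The first 3 were called lower at 12000 fibers and the last 2 were not, so that windows of both kinds can be set side by side. The capitals in Mcm5 and in Mcm6 hold E2F matches of both strands that overlap.
Mcm5, chr8:75109259-75109508, plus strand: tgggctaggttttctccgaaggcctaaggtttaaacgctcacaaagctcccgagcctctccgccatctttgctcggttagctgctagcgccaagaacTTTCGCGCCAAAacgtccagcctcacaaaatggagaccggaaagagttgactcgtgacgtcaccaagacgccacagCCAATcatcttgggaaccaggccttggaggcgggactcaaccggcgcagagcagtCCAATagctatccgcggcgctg
Pola1, chrX:93632156-93632405, minus strand: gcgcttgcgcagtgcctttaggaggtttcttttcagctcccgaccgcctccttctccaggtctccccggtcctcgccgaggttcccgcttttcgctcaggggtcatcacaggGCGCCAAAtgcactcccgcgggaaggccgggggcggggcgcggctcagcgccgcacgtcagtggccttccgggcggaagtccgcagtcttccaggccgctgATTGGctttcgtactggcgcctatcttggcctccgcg
Orc1, chr4:108579204-108579453, plus strand: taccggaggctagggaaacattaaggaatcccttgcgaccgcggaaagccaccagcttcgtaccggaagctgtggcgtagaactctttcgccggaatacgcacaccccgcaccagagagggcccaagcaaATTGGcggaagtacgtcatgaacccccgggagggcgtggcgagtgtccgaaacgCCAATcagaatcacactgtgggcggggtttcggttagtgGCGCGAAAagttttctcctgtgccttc
Mcm6, chr1:128359706-128359955, minus strand: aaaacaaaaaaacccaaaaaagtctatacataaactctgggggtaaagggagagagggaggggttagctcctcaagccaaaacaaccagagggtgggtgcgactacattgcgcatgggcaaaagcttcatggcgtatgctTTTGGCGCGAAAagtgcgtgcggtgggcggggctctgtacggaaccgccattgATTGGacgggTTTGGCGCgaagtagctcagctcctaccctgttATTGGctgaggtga
Cdc6, chr11:98907901-98908150, plus strand: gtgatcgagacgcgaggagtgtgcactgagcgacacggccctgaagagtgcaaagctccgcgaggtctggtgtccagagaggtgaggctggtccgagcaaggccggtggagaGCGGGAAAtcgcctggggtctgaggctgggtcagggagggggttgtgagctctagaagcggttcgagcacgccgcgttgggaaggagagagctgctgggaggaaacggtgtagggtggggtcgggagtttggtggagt
The E2F match of Orc1 started 27 bases before the RefSeq start, and the first match stood at 153 bases in Mcm5, 138 in Pola1, 110 in Mcm6 and 138 in Cdc6. Of the 14 members with an E2F match, 7 were called lower at 12000 fibers against control, with a median log2 fold change of -0.30. Of the 20 members with a window and no match, 14 were called lower, with a median of -0.40. These matches are descriptions of letters in a window, and binding was not measured.

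At 12000 fibers against control, the replication genes were lower or not called. Of the 41 members, 25 were called lower, none was called higher and 16 did not pass the test (edgeR quasi-likelihood test, Benjamini-Hochberg adjusted p under 0.05, here and in all that follows). That is 61% called lower, against 19.3% of all tested genes called lower and 18.7% called higher. The median member had a log2 fold change of -0.38, against -0.003 for all tested genes. The estimate was below 0 in 38 of the 41, and in 29 members the value was lower at 12000 fibers than in the control of the same mouse for all 4 mice. Neither count was taken over all tested genes, so no share of all genes stands beside them. The 12000-fiber and control libraries did not overlap in 22 members, 53.7%, against 36.3% of all tested genes. In either direction 38% of all tested genes were called. Calls of 12 members held under every alternative tried: Mcm4, Mcm5, Cdc45, Gins1, Rfc5, Prim1, Pold3, Pole, Rpa3, Lig1, Rrm1 and Tk1. Those of Orc1, Orc6, Mcm10, Rfc1, Rfc2, Pola1, Pola2, Pold1, Rpa2, Fen1, Rrm2, Tyms and Chaf1a were lost under at least 1.

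At 30000 fibers against control the members were split. There 14 were called higher (34.1%, against 32.2% of all tested genes), 8 were called lower (19.5%, against 33.4%) and 19 did not pass, and the median was 0.05. The share of members called in either direction was no larger than among all tested genes, of which 65.6% were called. The 30000-fiber and control libraries did not overlap in 18 members, 43.9%, against 58.1% of all tested genes. At 30000 fibers against 12000 fibers, 23 members were called higher (56.1%, against 28.3% of all tested genes), 2 were called lower (4.88%, against 27.1%) and 16 did not pass, and the median was 0.50. In either direction 55.4% of tested genes were called in that comparison, and the groups did not overlap in 24 members, 58.5%, against 52.3% of all tested genes. Calls at 30000 fibers against control were lost under at least 1 alternative for Mcm5, Gins3, Rfc4, Rfc5, Pola2, Prim2, Pold2, Lig1 and Tyms. Those at 30000 against 12000 fibers were lost or reversed under at least 1 for Orc1, Mcm4, Mcm7, Mcm10, Gins3, Gins4, Rfc1, Pola1, Prim2, Pold1, Pold2, Rrm2 and Chaf1b. The comparisons share libraries, so their values are given side by side and not as separate evidence. With so many genes called, each change is relative to the rest of its library.

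**Figure D1:**
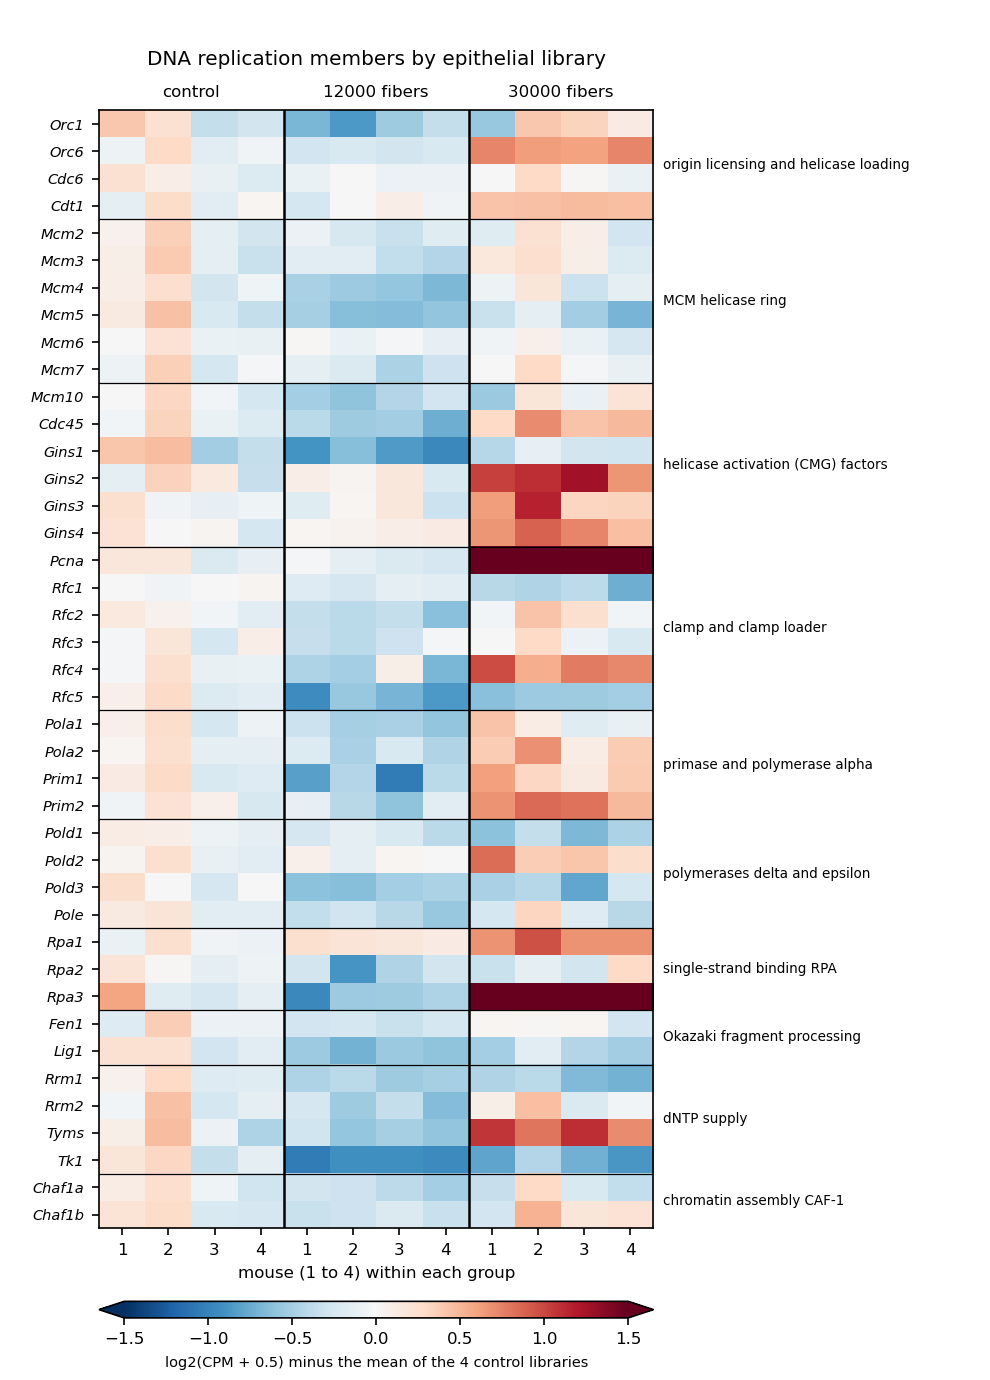
Each line is a member, ordered by role, and each column is an epithelial library, with mouse 1 to 4 within control, 12000 and 30000 fibers. Colour is log2(CPM + 0.5) minus the mean of the 4 control libraries, shown up to 1.5 either way; the 12000-fiber columns are mostly blue, and at 30000 fibers Pcna and Rpa3 stand darkest.

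Of the 4 members that license origins, Orc1 and Orc6 were called lower at 12000 fibers against control, and Cdc6 and Cdt1 were not called. Orc1, the largest subunit of the complex and its ATPase, had 7.41, 6.52, 4.17 and 4.45 CPM in the controls, 3.23, 2.80, 3.63 and 4.15 CPM at 12000 fibers and 3.53, 7.41, 7.07 and 6.01 CPM at 30000 fibers. All 4 libraries at 12000 fibers lay below the controls, the highest of them only just. At 30000 fibers mouse 1 stood with the 12000-fiber libraries, and the other 3 lay in the control range. The log2 fold change of Orc1 was -0.72 ± 0.23 (SE) at 12000 fibers against control (adjusted p = 0.0161) and 0.82 ± 0.27 at 30000 against 12000 fibers (adjusted p = 0.014). Orc6, the smallest subunit, changed by -0.28 ± 0.11 at 12000 fibers (adjusted p = 0.0485) and by 0.67 ± 0.12 at 30000 fibers (adjusted p = 4.97e-05), both against control. Its call at 12000 fibers was lost under 11 of 17 alternatives. Cdc6, an ATPase that brings the helicase to origins, had 16.4, 15.0, 12.9 and 12.0 CPM in the controls, 13, 14.0, 13.1 and 13.1 CPM at 12000 fibers and 14.1, 17.3, 14.1 and 13 CPM at 30000 fibers. The groups overlapped, and no comparison was called. Cdt1, its partner in loading, had 15.2, 20.4, 14.9 and 17.1 CPM in the controls, 13.9, 16.7, 18 and 16.1 CPM at 12000 fibers and 22.7, 22.9, 23.6 and 23.0 CPM at 30000 fibers. At 30000 fibers its 4 libraries lay within 1 CPM of each other and above every other library, with a log2 fold change of 0.44 ± 0.13 against control (adjusted p = 0.00457), whereas at 12000 fibers the value was -0.08 ± 0.12 (adjusted p = 0.622).

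The MCM ring is a hexamer of the products of 6 genes. At 12000 fibers against control 2 of the 6, Mcm4 and Mcm5, were called lower, with log2 fold changes of -0.59 ± 0.10 (adjusted p = 0.00022) and -0.64 ± 0.15 (adjusted p = 0.00508). Mcm5 had 56.5, 70.0, 43.8 and 40.1 CPM in the controls, 36.2, 32.8, 32.5 and 34.0 CPM at 12000 fibers and 40.7, 46.2, 35.6 and 31.4 CPM at 30000 fibers. The 4 libraries at 12000 fibers were close together and below all controls, while those at 30000 fibers overlapped both. Mcm6 had 87.2, 102, 81.4 and 81.2 CPM in the controls, 88.7, 81.7, 86.2 and 80.4 CPM at 12000 fibers and 84.6, 92.1, 81.8 and 73.5 CPM at 30000 fibers. Its groups overlapped, and its estimates were -0.06 ± 0.08 at 12000 fibers and -0.09 ± 0.08 at 30000 fibers against control, neither called. Mcm2 had 63.0, 77.2, 54.9 and 49.8 CPM in the controls, 56.8, 50.9, 47.8 and 53.2 CPM at 12000 fibers and 53.3, 70.9, 64.8 and 49.4 CPM at 30000 fibers. Its groups overlapped, and no comparison was called. Mcm3 and Mcm7 had values of -0.31 and -0.30 at 12000 fibers against control, short of the threshold (adjusted p = 0.0871 and adjusted p = 0.0523). With the mouse as a block both were called lower, Mcm3 by -0.30 (adjusted p = 0.00514) and Mcm7 by -0.29 (adjusted p = 0.00987), and both were below the control of the same mouse in all 4 mice. At 30000 fibers against control only Mcm5 of the 6 was called (-0.46 ± 0.17, adjusted p = 0.03), and at 30000 against 12000 fibers Mcm4 (0.49 ± 0.12, adjusted p = 0.0015) and Mcm7 (0.33 ± 0.13, adjusted p = 0.0393) were called higher. The second highest transcript of Mcm4 gave -0.72 in that comparison. At 30000 fibers against control the calls also depended on the transcript used. There the second highest transcripts of Mcm2 (-0.85, adjusted p = 0.00073), Mcm4 (-1.46, adjusted p = 8.64e-06) and Mcm6 (-0.50, adjusted p = 3.36e-05) were called lower. That of Mcm7 was called higher (0.61, adjusted p = 0.000277). The call of Mcm5 at 30000 fibers was lost with a length offset (-0.30, adjusted p = 0.145). Per kilobase of transcript the ring's genes lay between 15.6 (Mcm5) and 30.2 (Mcm6) CPM in controls, between 10.0 (Mcm5) and 28.9 (Mcm6) CPM at 12000 fibers and between 11.4 (Mcm5) and 28.5 (Mcm6) CPM at 30000 fibers. The difference between Mcm6 and Mcm5 in change was not tested.

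Among the factors that activate the helicase, Cdc45, Mcm10 and Gins1 were lower at 12000 fibers, and Gins2, Gins3 and Gins4 were not called. Cdc45, which bridges the ring and GINS, had 10.8, 14.1, 10.3 and 9.51 CPM in the controls, 8.25, 7.46, 7.53 and 6.43 CPM at 12000 fibers and 13.7, 18.3, 15.0 and 15.7 CPM at 30000 fibers. The 3 groups were apart from each other save for 1 control library (mouse 2) that lay within the 30000-fiber range. Its log2 fold change was -0.59 ± 0.15 at 12000 fibers (adjusted p = 0.00354) and 0.49 ± 0.15 at 30000 fibers (adjusted p = 0.00974), both against control, and 1.07 ± 0.16 between the fiber groups (adjusted p = 1.56e-05). Gins1, a GINS subunit on chr2:150909594-150931280, had 7.41, 7.69, 3.65 and 4.15 CPM in the controls, 2.69, 3.33, 2.79 and 2.54 CPM at 12000 fibers and 3.92, 4.94, 4.42 and 4.34 CPM at 30000 fibers. Mice 1 and 2 stood well above mice 3 and 4 in the controls, and every library at 12000 fibers lay below all of them. The log2 fold change was -1.02 ± 0.24 at 12000 fibers (adjusted p = 0.00201) and -0.39 ± 0.27 at 30000 fibers (adjusted p = 0.225), both against control. With a length offset for each library the value at 30000 fibers was -1.01 and was called lower (adjusted p = 0.00236). Gins1 had the lowest single count of any member at 12000 fibers, 19.

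The other GINS subunits, which share a complex with Gins1, were not called at 12000 fibers and were called higher at 30000 fibers. Gins2 had 6.83, 9.83, 8.47 and 5.87 CPM in the controls, 8.16, 7.86, 8.65 and 6.43 CPM at 12000 fibers and 16.1, 16.9, 18.8 and 12.4 CPM at 30000 fibers. The controls and 12000 fibers overlapped, and all 4 libraries at 30000 fibers lay above them, with a log2 fold change of 1.05 ± 0.18 against control (adjusted p = 3.93e-05). Gins4 had 18.9, 16.3, 16.7 and 13.5 CPM in the controls, 16.5, 16.8, 17.4 and 17.7 CPM at 12000 fibers and 25.9, 30.3, 27.4 and 22.4 CPM at 30000 fibers. Its log2 fold change was 0.07 ± 0.11 at 12000 fibers (adjusted p = 0.679) and 0.70 ± 0.12 at 30000 fibers (adjusted p = 4.65e-05), both against control, and the 30000-fiber libraries lay above all others. Gins3 was called higher at 30000 fibers against control at 0.69 ± 0.23 (adjusted p = 0.0125). Mcm10 changed by -0.49 ± 0.14 at 12000 fibers against control (adjusted p = 0.0108) and had -0.05 ± 0.16 at 30000 fibers (adjusted p = 0.808). The value of Gins2 is uncertain, because 75.3% of its representative transcript lies over exons of Gse1 on the opposite strand and the strand setting of the counts was not given in the sources used here.

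**Figure D2:**
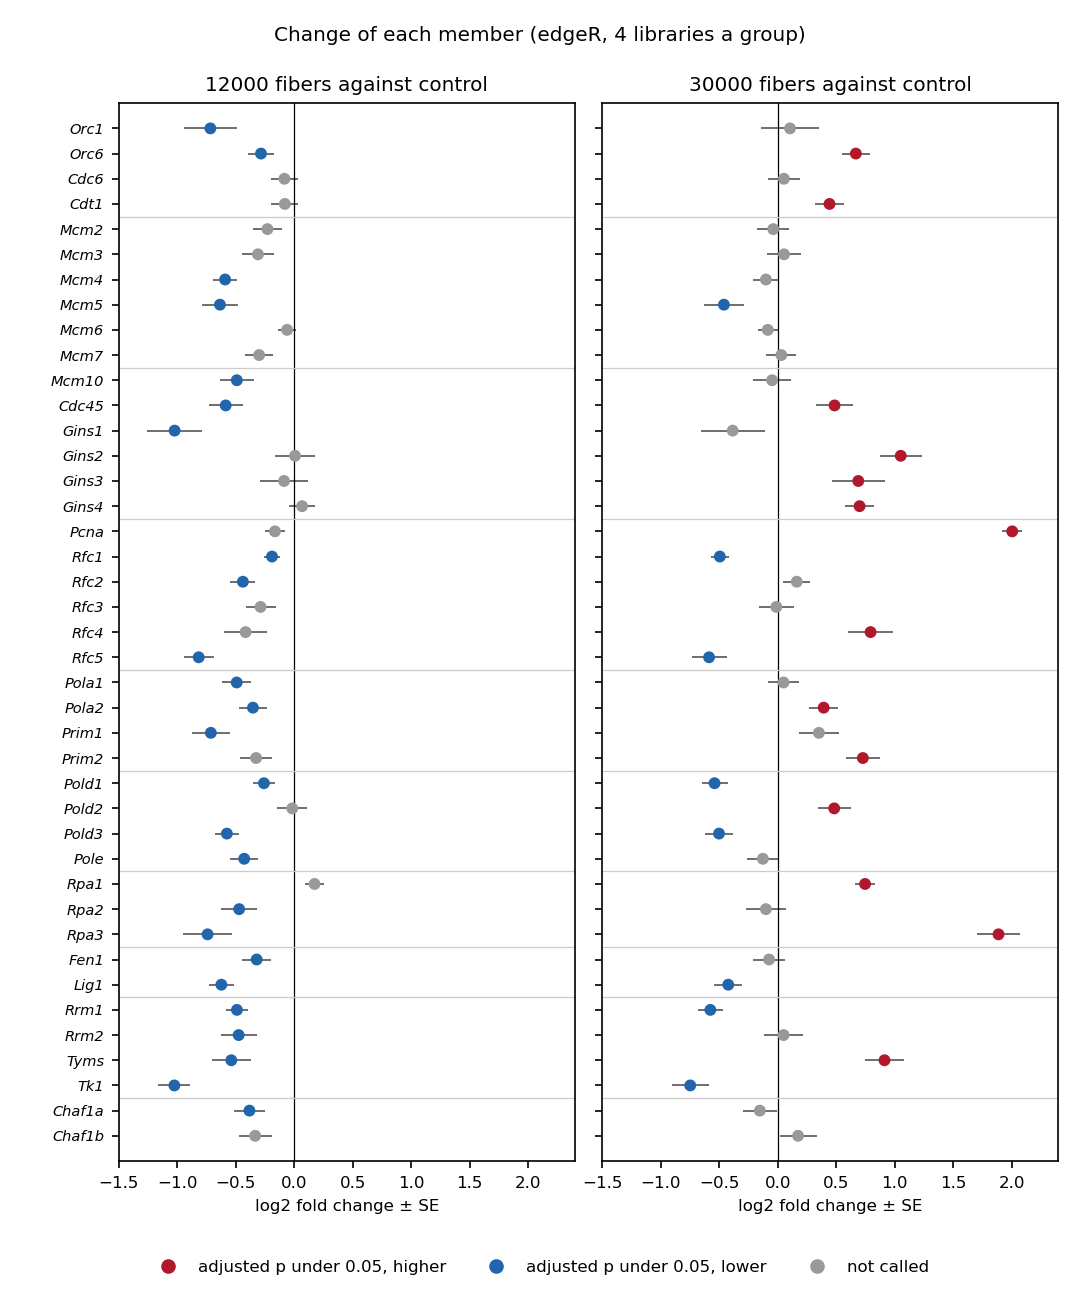
Log2 fold change of each member (horizontal axis, ± SE) at 12000 fibers against control (left) and at 30000 fibers against control (right), ordered by role and coloured by the call. On the left 25 points are called lower and none higher; on the right 14 are called higher and 8 lower.

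The clamp and its loader held both the largest rise of the set at 30000 fibers against control and some of its falls. Pcna, the sliding clamp, on chr2:132249162-132253314, had 46.0, 45.8, 35.2 and 37.5 CPM in the controls, 39.9, 37.3, 35 and 34.3 CPM at 12000 fibers and 175, 169.7, 164 and 153 CPM at 30000 fibers. All 4 libraries at 30000 fibers lay far above the rest, and those at 12000 fibers overlapped the controls. The log2 fold change was 2.00 ± 0.09 at 30000 fibers (adjusted p = 1.13e-13) and -0.17 ± 0.09 at 12000 fibers (adjusted p = 0.152), both against control. Rfc1, the large loader subunit, had 86.0, 82.4, 85.7 and 88.2 CPM in the controls, 74.5, 71.8, 77.8 and 76.0 CPM at 12000 fibers and 64.3, 62.4, 65.1 and 51.1 CPM at 30000 fibers. The groups were fully apart, with the controls highest and 30000 fibers lowest, and its changes were -0.19 ± 0.07 at 12000 fibers (adjusted p = 0.0301) and -0.49 ± 0.07 at 30000 fibers (adjusted p = 8.43e-06) against control. Rfc5, a small loader subunit, had 18.8, 21.7, 15.4 and 15.9 CPM in the controls, 8.97, 11.9, 10.7 and 9.51 CPM at 12000 fibers and 11.4, 12.0, 12.1 and 12.4 CPM at 30000 fibers. The controls lay above every fiber-treated library, and the log2 fold changes were -0.82 ± 0.13 at 12000 fibers (adjusted p = 5.21e-05) and -0.59 ± 0.15 at 30000 fibers (adjusted p = 0.00193). The representative transcript of Rfc5 keeps introns, as do those of Cdt1, Gins2, Rfc3 and Chaf1a. At 30000 fibers its highest coding transcript gave -0.34 (adjusted p = 0.0512) and its second highest transcript -0.16 (adjusted p = 0.349). Rfc4, another small subunit, had 6.02, 7.30, 5.60 and 5.67 CPM in the controls, 4.30, 4.13, 6.55 and 3.62 CPM at 12000 fibers and 12.5, 9.17, 10.9 and 10.4 CPM at 30000 fibers. Its 30000-fiber libraries lay above all others. It was called higher against both other groups, by 0.79 ± 0.20 against control (adjusted p = 0.00138) and 1.21 ± 0.20 against 12000 fibers (adjusted p = 4.73e-05). With a length offset the value against control was 0.36 (adjusted p = 0.109). Rfc2 changed by -0.44 ± 0.11 at 12000 fibers against control (adjusted p = 0.00275), and Rfc3 had -0.29 ± 0.13 (adjusted p = 0.0846).

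Primase and polymerase alpha start every new strand, and all 4 of their genes were called higher at 30000 against 12000 fibers. Pola1, the catalytic subunit of the polymerase, had 28.5, 32.7, 22.4 and 25.7 CPM in the controls, 21.6, 19.1, 19.1 and 17.8 CPM at 12000 fibers and 36.4, 29.3, 23.8 and 25.1 CPM at 30000 fibers. The libraries at 12000 fibers lay below all others, and those at 30000 fibers overlapped the controls. Its log2 fold change was -0.49 ± 0.12 at 12000 fibers against control (adjusted p = 0.00369), 0.05 ± 0.14 at 30000 fibers against control (adjusted p = 0.761) and 0.54 ± 0.14 at 30000 against 12000 fibers (adjusted p = 0.00285). At 12000 fibers against control Prim1, the catalytic primase subunit, changed by -0.71 ± 0.16 (adjusted p = 0.0015) and Pola2, the accessory polymerase subunit, by -0.35 ± 0.12 (adjusted p = 0.0223). Prim2, the large primase subunit, had -0.33 ± 0.14 (adjusted p = 0.0721). Pola2 (0.39 ± 0.13, adjusted p = 0.01) and Prim2 (0.73 ± 0.15, adjusted p = 0.000226) were called higher at 30000 fibers against control, and Prim1 had 0.35 ± 0.17 (adjusted p = 0.0744), which a fit that blocks on mouse called higher (0.37, adjusted p = 0.0362). Over the 17 alternatives the value of Prim1 at 30000 fibers against control ran from -0.20 to 0.46 and was called under 2. On the log2(CPM + 0.5) scale its second highest transcript changed by -0.38 there. The second highest transcript of Prim2 gave 0.09 at 30000 fibers against control and 0.31 against 12000 fibers, and that of Pola1 gave 0.21 against 12000 fibers, none of them called.

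Of the polymerases that copy the bulk of the genome, Pold1, Pold3 and Pole were lower at 12000 fibers. Pold1, the catalytic subunit of polymerase delta, had 31.3, 31.1, 27.4 and 26.4 CPM in the controls, 24.2, 26.4, 24.7 and 21.8 CPM at 12000 fibers and 18.8, 22.6, 18 and 20.7 CPM at 30000 fibers. The order was controls, 12000 and 30000 fibers, with the last 2 groups overlapping, and the changes against control were -0.26 ± 0.09 (adjusted p = 0.0337) and -0.54 ± 0.11 (adjusted p = 0.000261). Pold2, its second subunit, had 13.9, 16.1, 12.5 and 12.0 CPM in the controls, 14.3, 12.3, 13.8 and 13.5 CPM at 12000 fibers and 24.7, 17.6, 18.3 and 16.4 CPM at 30000 fibers. The controls and 12000 fibers overlapped, and the 30000-fiber libraries lay above both. It was not called at 12000 fibers (-0.02 ± 0.13, adjusted p = 0.934) and was called higher at 30000 fibers (0.48 ± 0.14, adjusted p = 0.00532), both against control. Its second highest transcript was called lower at 30000 fibers (-0.86, adjusted p = 0.00478). Pold3 was called lower at both fiber numbers against control, by -0.58 ± 0.10 at 12000 (adjusted p = 0.000194) and -0.50 ± 0.12 at 30000 (adjusted p = 0.000858). Pole, the catalytic subunit of polymerase epsilon on the leading strand, had 36.8, 38.3, 30.0 and 29.8 CPM in the controls, 25.8, 27.2, 25.0 and 22.4 CPM at 12000 fibers and 27.8, 42.0, 29.1 and 25.1 CPM at 30000 fibers. The libraries at 12000 fibers lay below the controls, and those at 30000 fibers overlapped both. Its log2 fold change at 12000 fibers against control was -0.43 ± 0.12 (adjusted p = 0.00896).

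RPA is a trimer on single-stranded DNA. Of its 3 genes, Rpa2 and Rpa3 were called lower at 12000 fibers against control, and Rpa1 and Rpa3 were called higher at 30000 fibers against control. Rpa1, the large DNA-binding subunit, had 54.6, 69.0, 56.4 and 55.0 CPM in the controls, 69.0, 67.1, 65.7 and 63.5 CPM at 12000 fibers and 93.6, 114, 93.9 and 93.5 CPM at 30000 fibers. The 12000-fiber libraries overlapped the mouse 2 control, and all 4 at 30000 fibers lay above the rest. It had the highest estimate of the set at 12000 fibers against control, 0.17 ± 0.08, which was not called (adjusted p = 0.102), and at 30000 fibers it was called higher by 0.75 ± 0.09 (adjusted p = 2.81e-07). The latter call held under all 17 alternatives, with values from 0.435 to 0.982. Its transcripts that end 2184, 3139 and 17874 bases upstream of the gene's 3′ end changed there by 0.25, -0.23 and 0.58 on the log2(CPM + 0.5) scale. Rpa3, the smallest subunit, on chr6:8255936-8259173, had 9.96, 5.64, 5.34 and 5.77 CPM in the controls, 3.05, 4.26, 4.32 and 4.55 CPM at 12000 fibers and 26.2, 24.0, 22.1 and 26.7 CPM at 30000 fibers. It was lower than the controls in all 4 libraries at 12000 fibers and higher than every other library in all 4 at 30000 fibers. The log2 fold changes of Rpa3 were -0.74 ± 0.21 at 12000 fibers (adjusted p = 0.00762) and 1.89 ± 0.18 at 30000 fibers (adjusted p = 2.85e-08) against control, and 2.63 ± 0.20 between the fiber groups (adjusted p = 1.09e-09). Rpa3 has the shortest transcript of the members, 670 bases, and with a length offset its values were 0.60 at 30000 fibers against control (adjusted p = 0.00653) and 1.41 between the fiber groups (adjusted p = 6.1e-06). Rpa2, the middle subunit, changed by -0.47 ± 0.15 at 12000 fibers (adjusted p = 0.0182) and had -0.10 ± 0.17 at 30000 fibers (adjusted p = 0.625), both against control.

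Both genes that finish Okazaki fragments were lower at 12000 fibers against control. Fen1, the flap nuclease, had 16.1, 24.0, 17.3 and 17.3 CPM in the controls, 15.0, 15.3, 14.5 and 15.3 CPM at 12000 fibers and 18.8, 18.7, 18.8 and 15.0 CPM at 30000 fibers. The mouse 2 control stood highest, 1 library at 30000 fibers (mouse 4) stood with the 12000-fiber group, and the log2 fold change at 12000 fibers against control was -0.32 ± 0.12 (adjusted p = 0.0437). The value of Fen1 is uncertain, because 80.4% of its transcript lies over the antisense gene Gm10143. Lig1, the ligase that seals the nicks, had 72.0, 72.0, 50.3 and 54.9 CPM in the controls, 42.1, 37.6, 41.8 and 40.5 CPM at 12000 fibers and 43.1, 55.0, 45.3 and 42.8 CPM at 30000 fibers. All libraries at 12000 fibers lay below the controls, and 1 at 30000 fibers (mouse 2) reached the control range. Its log2 fold change was -0.62 ± 0.11 at 12000 fibers (adjusted p = 0.000182) and -0.42 ± 0.12 at 30000 fibers (adjusted p = 0.0045) against control.

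All 4 genes of nucleotide supply were lower at 12000 fibers, and at 30000 fibers they parted. Tk1, the S phase thymidine kinase of the salvage pathway, on chr11:117815526-117826092, had 23.6, 25.7, 16.0 and 18.8 CPM in the controls, 9.77, 10.7, 10.7 and 10.4 CPM at 12000 fibers and 11.8, 15.2, 12.4 and 11 CPM at 30000 fibers. Every fiber-treated library lay below every control. The log2 fold change was -1.02 ± 0.14 at 12000 fibers (adjusted p = 9.08e-06), with Gins1 at the same rounded value the lowest of the set, and -0.75 ± 0.16 at 30000 fibers (adjusted p = 0.000395). Tyms, which makes thymidylate by the other route, had 16.0, 20.8, 14.1 and 10.7 CPM in the controls, 12.1, 9.86, 10.5 and 9.78 CPM at 12000 fibers and 32.1, 26.5, 33.0 and 24.7 CPM at 30000 fibers. Its 12000-fiber libraries overlapped the lowest control, its 30000-fiber libraries lay above all others, and the changes against control were -0.54 ± 0.17 (adjusted p = 0.0158) and 0.91 ± 0.17 (adjusted p = 0.00011). Rrm1, the large subunit of ribonucleotide reductase, had 116, 137, 97.3 and 98 CPM in the controls, 80.4, 84.1, 76.8 and 78.5 CPM at 12000 fibers and 81.1, 84.0, 69.8 and 67.5 CPM at 30000 fibers. The fiber groups overlapped each other and lay below the controls, with changes of -0.49 ± 0.10 (adjusted p = 0.000574) and -0.58 ± 0.10 (adjusted p = 9.83e-05). Rrm2, the small subunit, whose level limits the enzyme in S phase, had 28.7, 40.3, 24.5 and 26.9 CPM in the controls, 24.8, 20.3, 22.9 and 18.6 CPM at 12000 fibers and 31.3, 40.6, 25.3 and 28.7 CPM at 30000 fibers. The 12000-fiber libraries reached the lowest control, and those at 30000 fibers overlapped the controls. It was called lower at 12000 fibers (-0.47 ± 0.15, adjusted p = 0.0239) and not at 30000 fibers (0.05 ± 0.17, adjusted p = 0.809), both against control.

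CAF-1 deposits histones H3 and H4 behind the fork. Chaf1a, its large subunit, had 48.5, 53.8, 42.9 and 36.5 CPM in the controls, 37.2, 36.2, 34.2 and 31.5 CPM at 12000 fibers and 35.3, 55.4, 38.3 and 34.7 CPM at 30000 fibers. Mouse 2 at 30000 fibers stood above every other library, and the 12000-fiber libraries reached the lowest control. The log2 fold change at 12000 fibers against control was -0.38 ± 0.13 (adjusted p = 0.0268). Chaf1b, the middle subunit, had -0.33 ± 0.14 (adjusted p = 0.07) in that comparison and was called higher at 30000 against 12000 fibers (0.51 ± 0.16, adjusted p = 0.0123), a call lost with summed transcripts (0.37, adjusted p = 0.053). Of the representative transcript of Chaf1a, 49.5% lies over exons of Ubxn6 on the opposite strand.

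**Figure D3:**
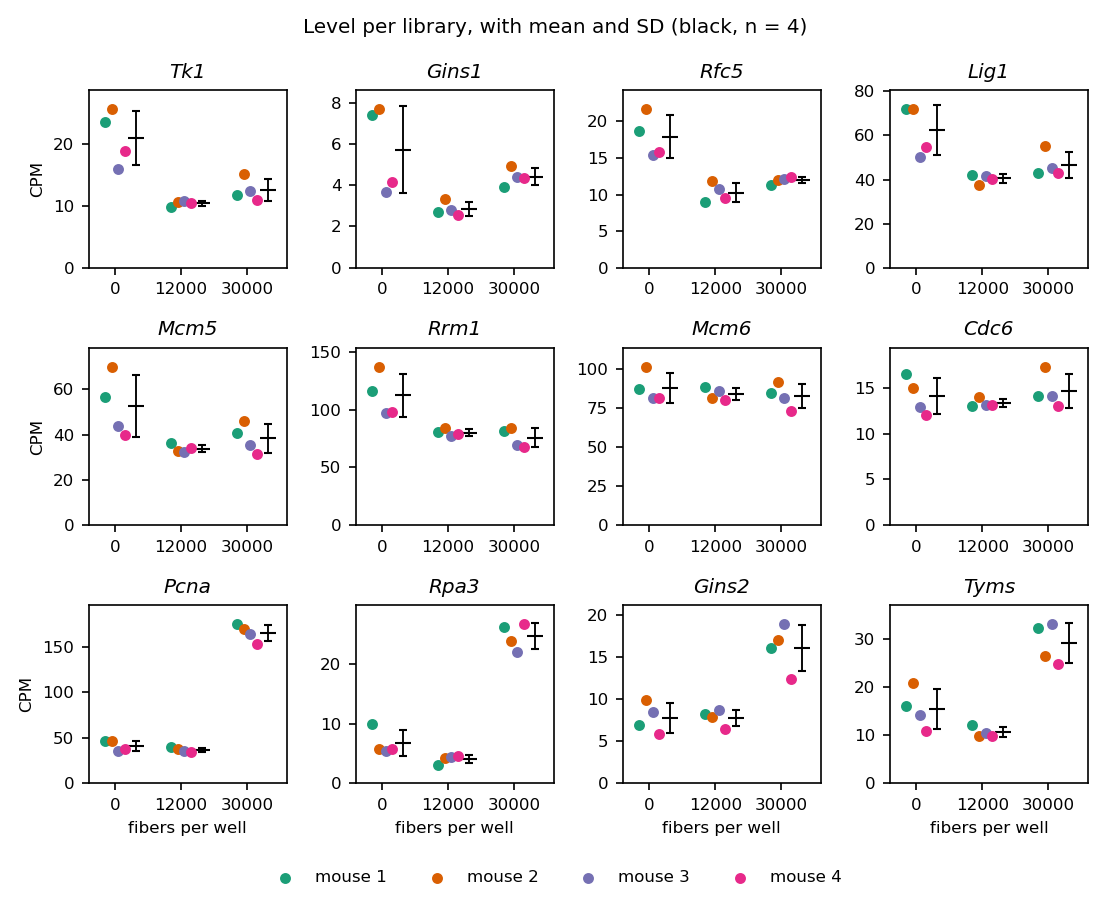
CPM per library (vertical axis, from 0) for 12 members, by fibers per well and coloured by mouse, with the mean and SD of each group in black (n = 4). The first 2 lines of panels hold members with lower or similar levels under fibers, such as Tk1 and Mcm6; in the last line Pcna, Rpa3, Gins2 and Tyms lie highest at 30000 fibers.

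Levels between genes are compared per kilobase of transcript. Mcm6 (30.2 ± 3.28 CPM), Rrm1 (28.1 ± 4.70 CPM) and Pcna (27.1 ± 3.68 CPM) were highest in controls and differed from each other by less than their SD. Lig1 followed at 20.2 ± 3.67 CPM, and Mcm4, Mcm2, Rfc1, Mcm7 and Mcm3 lay between 17.5 and 18.4 CPM, also within their spread. The lowest were Gins3 at 1.66 ± 0.22 CPM, Orc1 at 1.87 ± 0.52 CPM and Gins2 at 2.12 ± 0.48 CPM (SD, n = 4). At 12000 fibers the 3 highest were Mcm6 (28.9 ± 1.33 CPM), Pcna (24.1 ± 1.67 CPM) and Rrm1 (20.0 ± 0.78 CPM). At 30000 fibers Pcna stood first at 109.0 ± 6.14 CPM per kilobase, and Rpa3 was second at 37.0 ± 3.21 CPM. Single counts ranged from 28 (Gins1) to 1409 (Rrm1) in controls, with a median of 196, from 19 (Gins1) to 989 (Mcm6) at 12000 fibers, with a median of 136, and from 9 (Orc1) to 557 (Pcna) at 30000 fibers, with a median of 73.

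The mice were not alike within a group. In the controls mouse 2 had the highest value in 29 of the 41 members and mouse 1 in 11, and the lowest value belonged to mouse 3 in 21 and to mouse 4 in 17. The median member of control mouse 2 lay 0.26 above the control mean on the log2 scale, and that of mouse 4 lay at -0.16. At 30000 fibers mouse 2 again had the highest value, in 25 members, and mouse 4 the lowest, in 22. At 12000 fibers mouse 1 was highest in 16 members and mouse 4 lowest in 18, and the medians ran from -0.03 to 0.05. The summed CPM of the members was 1141 to 1509 in controls, 988 to 1052 with 12000 fibers and 1298 to 1591 with 30000 fibers, so that the 12000-fiber group did not overlap the others and was the narrowest. Between the libraries of the same mouse the median member changed at 12000 fibers against control by -0.38 in mouse 1, -0.60 in mouse 2, -0.22 in mouse 3 and -0.21 in mouse 4. Without the control library of mouse 2 the count of members called lower at 12000 fibers was 17, with 1 (Rpa1) called higher, and the median was -0.29.

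The 30000-fiber libraries also differed in which end of a gene their counts came from. The 3′ end of a gene is here the last one among its transcripts listed with counts. Within the members, transcripts that end within 200 bases of it (75 transcripts of 35 genes) had a median log2 change of 0.0 at 30000 fibers against control. Those that end further upstream (95 transcripts of 30 genes) had a median of -0.56. Over all genes the medians were -0.05 and -0.61. At 12000 fibers against control both kinds of member transcript gave similar medians, -0.33 and -0.31. Of the 30 members with both kinds, the transcripts that end near the 3′ end had the higher change in 26 at 30000 fibers (86.7%, against 84.6% of 8521 genes). At 12000 fibers they had it in 11 of the 30 members, against 3176 of the 8521 genes.

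Pcna shows this within a single gene. Its 2 transcripts that reach the gene's 3′ end changed by 2.00 and 2.66 at 30000 fibers against control on the log2(CPM + 0.5) scale. Of the others, the transcript that ends 2167 bases upstream changed by -0.73, and the one that ends 715 bases upstream changed by -0.26. In Tyms the transcripts that end within 625 bases of the 3′ end changed by 0.90 and 0.92, and those of 2862 bases or more upstream had values between -1.14 and 0.04. Tk1 was lower at either end, with changes of -0.72, -1.52, -1.35 and -1.67 over its 4 transcripts with a mean count of at least 20. Transcripts of a gene share reads: in 19 of the 39 members with 2 or more transcripts, the second had over 90% of the highest count. Representative transcripts of 12 members lie in part over exons of a gene on the opposite strand, by at most 19.1% of their length outside Gins2, Fen1 and Chaf1a. Pcna and Tyms also have annotated processed pseudogenes (Pcna-ps1, Pcna-ps2 and Tyms-ps), and how reads shared with these copies were counted was not given in the sources used here.

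Length of transcript moved with the change at 30000 fibers as well. Over all genes the median log2 fold change against control was 0.53 in the shortest of 5 equal classes of transcript length and -0.23 in the longest, and among the members it was 0.67 (9 members) and -0.13 (3 members). The 14 members called higher at 30000 fibers had a median length of 2059 bases, and the 8 called lower had 3417 bases. At 12000 fibers the medians of all genes by length stayed between -0.02 and 0.03, and those of the members ran from -0.44 to -0.31. The 4 libraries at 30000 fibers share this shift, the low depth and the mitochondrial share, so these and the fiber number cannot be told apart there. With a length offset for each library, 13 members were called higher and 8 lower at 30000 fibers against control. Those calls no longer held Rfc4, Pold2 and Mcm5, and gained Rfc2 (0.40, adjusted p = 0.00679) and Gins1. At 12000 fibers 24 were called lower with the offset.

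**Figure D4:**
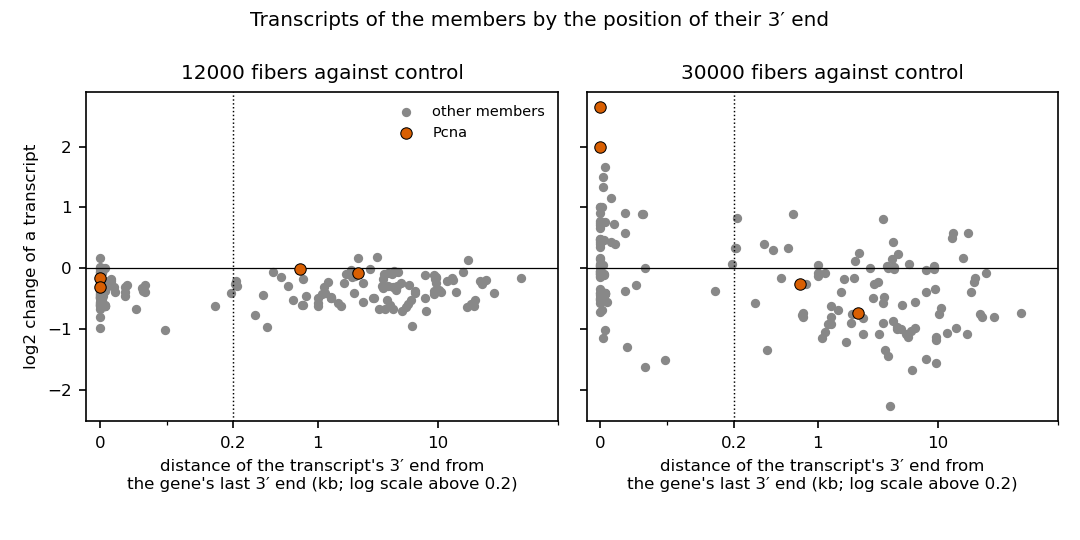
Each point is a transcript of a member with a mean count of at least 20, placed by the distance of its 3′ end from the gene's last listed 3′ end (horizontal, kb, log scale above the dotted line at 0.2) and by its log2 change (vertical) at 12000 fibers (left) and 30000 fibers (right) against control. Pcna is marked: at 30000 fibers its transcripts at distance 0 lie at 2.00 and 2.66 and the others at -0.26 and -0.73.

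Other genes of the replication and cell cycle programme were counted from lists of known function, against the shares over all tested genes of 18.7% higher and 19.3% lower at 12000 fibers and 32.2% higher and 33.4% lower at 30000 fibers. Of 29 other replisome and licensing genes, 11 were called lower (37.9%) and none higher at 12000 fibers against control. At 30000 fibers 6 were higher (20.7%) and 9 lower (31%), neither share above that of all tested genes. Ticrr, which recruits Cdc45 to origins, had 18.9 ± 3.18 CPM in the controls, 8.86 ± 1.75 CPM at 12000 fibers and 15.5 ± 2.31 CPM at 30000 fibers, a log2 fold change of -1.08 ± 0.15 at 12000 fibers against control (adjusted p = 1.25e-05). Gmnn, the inhibitor of Cdt1, changed by -0.95 ± 0.16 in the same comparison (adjusted p = 8.44e-05), and Pole2, the second subunit of polymerase epsilon, by -1.0 ± 0.19 (adjusted p = 0.000369). Pole4, a small subunit of polymerase epsilon, changed by 1.09 ± 0.13 at 30000 fibers against control (adjusted p = 6.28e-07), Orc3 by 0.68 ± 0.09 (adjusted p = 3.30e-06) and the topoisomerase Top1 by -0.60 ± 0.08 (adjusted p = 1.44e-06).

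Of the genes that act at or after replication, all 29 G2 and mitosis genes, 17 of 29 fork repair genes and 13 of 20 chromatin and cohesion genes were called lower at 12000 fibers against control. The G2 and mitosis genes had a median of -0.88 there. At 30000 against 12000 fibers 25 of them were called higher (86.2%, against 28.3% of all tested genes). Mki67, a protein of cycling cells, had 431 ± 75.7 CPM in the controls, 183 ± 6.97 CPM at 12000 fibers and 233 ± 24.5 CPM at 30000 fibers. Its log2 fold change was -1.23 ± 0.10 at 12000 fibers (adjusted p = 1.73e-07) and -0.89 ± 0.10 at 30000 fibers (adjusted p = 1.18e-06), both against control. Top2a, the mitotic topoisomerase, changed by -0.78 ± 0.10 (adjusted p = 8.92e-06) and -0.33 ± 0.10 (adjusted p = 0.00735) in the same comparisons. Of the fork repair genes 58.6% were lower and none higher at 12000 fibers, among them Bard1, the partner of Brca1, at -1.42 ± 0.14 (adjusted p = 3.09e-07). Of the S phase chromatin and cohesion genes 65% were lower and none higher, among them Esco2, the cohesin acetyltransferase, at -0.83 ± 0.11 (adjusted p = 4.74e-06) and the centromeric histone gene Cenpa at -1.04 ± 0.16 (adjusted p = 5.16e-05). At 30000 fibers against control 3 G2 and mitosis genes were higher and 13 lower (44.8%), 4 fork repair genes were higher and 13 lower (44.8%), and 3 chromatin genes were higher and 11 lower (55%).

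Of 27 G1/S regulators, 5 were called higher (18.5%) and 8 lower (29.6%) at 12000 fibers against control, and 13 were higher (48.1%) and 4 lower (14.8%) at 30000 fibers. The share called higher at 12000 fibers was close to that of all tested genes. E2f1, an activator of replication genes, had 19.3 ± 1.66 CPM in the controls, 24.3 ± 0.832 CPM at 12000 fibers and 23.5 ± 3.77 CPM at 30000 fibers. It was called higher at 12000 fibers (0.34 ± 0.10, adjusted p = 0.0121) and at 30000 fibers (0.29 ± 0.12, adjusted p = 0.0351), both against control. Ccna2, the cyclin of S phase and G2, changed by -1.12 ± 0.12 at 12000 fibers (adjusted p = 8.91e-07) and had -0.01 ± 0.12 at 30000 fibers (adjusted p = 0.943). Ccne2, a cyclin of the G1 to S passage, had -0.04 ± 0.16 at 12000 fibers (adjusted p = 0.865) and changed by 1.17 ± 0.17 at 30000 fibers (adjusted p = 4.44e-06). Ccnd2, a G1 cyclin, changed by -0.60 ± 0.08 (adjusted p = 5.82e-06) and Myc by 0.47 ± 0.07 (adjusted p = 4.01e-05) at 12000 fibers. E2f8, a repressor of the E2F family, changed by 1.18 ± 0.10 at 30000 fibers (adjusted p = 7.04e-09), and Cks1b, a CDK subunit, by 1.29 ± 0.13 (adjusted p = 2.77e-08).

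Of 7 CDK inhibitors 1 was higher (14.3%) and 3 lower (42.9%) at 12000 fibers, and 1 was higher (14.3%) and 4 lower (57.1%) at 30000 fibers, both against control. Cdkn1a, the p21 inhibitor, had 292 ± 42.2 CPM in the controls, 347 ± 11.8 CPM at 12000 fibers and 603 ± 27.5 CPM at 30000 fibers (SD, n = 4 each). It was called higher at 12000 fibers (0.25 ± 0.08, adjusted p = 0.0219) and at 30000 fibers (1.05 ± 0.09, adjusted p = 1.81e-09). Cdkn1b, the p27 inhibitor, was called lower at both (-0.49 ± 0.08, adjusted p = 5.13e-05, and -0.44 ± 0.08, adjusted p = 0.000102). Cdkn2a, the p16 inhibitor, had 8.94 ± 2.43 CPM in the controls, 4.29 ± 0.91 CPM at 12000 fibers and 0.78, 0, 0.59 and 1.0 CPM at 30000 fibers, and was called lower at 12000 fibers (-1.07 ± 0.22, adjusted p = 0.000709) and at 30000 fibers (adjusted p = 1.47e-07), against control. Cdkn2b, the p15 inhibitor, was called lower at 30000 fibers (-0.72 ± 0.10, adjusted p = 3.22e-06), and Cdkn2c, the p18 inhibitor, at 12000 fibers (-0.56 ± 0.18, adjusted p = 0.0183) and at 30000 fibers (-0.56 ± 0.22, adjusted p = 0.029). Of 20 other nucleotide supply genes 3 were higher (15%) and 2 lower (10%) at 12000 fibers, with a median of -0.005, and 8 were higher (40%) and 9 lower (45%) at 30000 fibers. Their log2 fold changes at 30000 fibers against control ran from -0.76 to 5.13. Dut, the dUTPase, changed by -0.40 ± 0.10 at 12000 fibers (adjusted p = 0.00349) and by 0.93 ± 0.10 at 30000 fibers (adjusted p = 1.51e-07). Shmt1, which supplies folate-bound carbon for thymidylate, changed by -0.95 ± 0.14 (adjusted p = 2.60e-05) and -0.76 ± 0.17 (adjusted p = 0.000461), and the CTP synthase gene Ctps by 0.42 ± 0.07 (adjusted p = 5.02e-05) and -0.37 ± 0.07 (adjusted p = 0.000188).

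**Figure D5:**
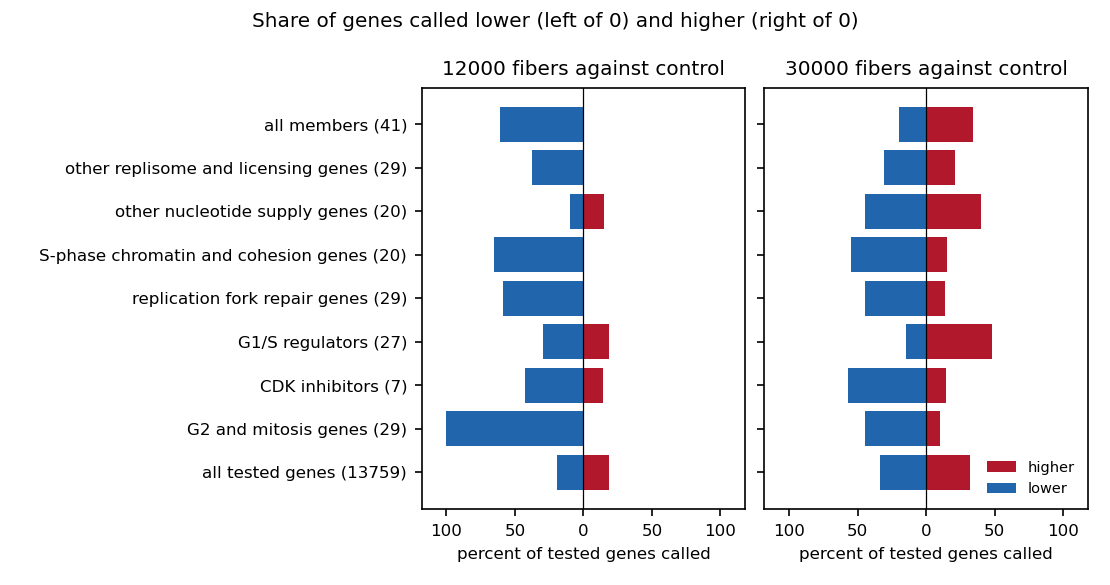
Percent of tested genes called lower (bars to the left of 0) and higher (to the right) in each list at 12000 fibers (left) and 30000 fibers (right) against control, with the number of tested genes in parentheses and all tested genes at the bottom. At 12000 fibers the members reach 61% lower and the G2 and mitosis genes 100% lower, against 19.3% of all tested genes.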

How the data were processed

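RNA was measured in 12 epithelial libraries, 4 in each of 3 groups given by the sample titles. The authors' tools, per the submitters' processing notes, were HISAT2 2.1.0, cutadapt 1.12, bcl2fastq and FastQC, on build mm10. The deposited values are raw counts per Ensembl transcript, not normalized or pooled. The counting program, annotation, strand setting and handling of barcodes were not given in the sources used here. Every listed transcript had at least 60 counts over the epithelial libraries, so the table had been filtered. The 12 fibroblast columns hold 107814 entries beside 71081 transcript identifiers and do not follow them (Spearman rho of 0.0467 against the epithelial counts), so they were not used.

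A gene's values are those of its transcript with most epithelial counts on average. Counts of all 12 libraries entered 1 fit in edgeR 4.0.16 (R 4.3.3): filterByExpr by group, TMM, robust quasi-likelihood F tests with 9 residual degrees of freedom, and Benjamini-Hochberg adjustment over 13759 genes with a threshold of 0.05. CPM used the TMM-scaled total. In simulated data, 89 of 100 genes changed by 1 on the log2 scale were recovered at 12000 fibers against control, 74 of 100 at 30000 fibers against control and 81 of 100 between the fiber groups. Of 100 genes changed by 0.5, nearer to the median member change at 12000 fibers, 50, 46 and 49 were recovered in these comparisons. Only these genes, picked at random, were changed in each simulation, and all groups were drawn from control levels. In the data 38 to 65.6% of genes were called, which alters the adjustment of p. These recovered counts therefore do not give the sensitivity of the member calls. P-values set the difference between groups against the spread of libraries within groups, pooled over the 3 groups and with information shared across genes. They do not use the pairing by mouse, save in the fit with a mouse block.

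Mouse numbers pair the libraries, since the labels give the same mice in every group. Deviations from the group means correlated at -0.02 to 0.16 between libraries of the same mouse and at -0.18 to 0.12 between those of different mice. GENCODE M21 (GRCm38, the assembly of mm10) gave coordinates, lengths and 3′ ends. For transcripts, changes were taken as differences of log2(CPM + 0.5). Promoters came from RefSeq windows.

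The members and all gene lists were chosen with earlier results of these data known. The text accounts for all members and gives library values for the 4 lowest and 4 highest log2 fold changes of each comparison and for a fixed set of members. From other lists it names up to 3 called genes by smallest p in a comparison, and fixed genes such as Mki67 and Cdkn1a. Alternatives were DESeq2 1.42.0 (size factors, and its Wald test), no count filter, a block for the mouse, only the 2 groups compared, summed transcripts, the second highest transcript, a length offset (loess span 0.3) and each library left out. The highest coding transcript was an alternative chosen after seeing the data. The counts behind each member, 9 to 1409 a library, set its precision.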

Additional observations from a re-analysis of the deposited data

Results flagged for a closer look

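Within groups of 4 libraries, 7 of the 123 member and group combinations held a library far from the other 3, where chance gives about 1 in 20. Control mouse 2 stood apart in Rpa1, at 68.98 CPM with the others between 54.63 and 56.42 CPM, and in Fen1, at 24.03 CPM with the others between 16.09 and 17.33 CPM. At 30000 fibers mouse 2 stood apart in Rpa1, at 114.29 CPM against 93.53 to 93.91 CPM, and in Chaf1a, at 55.38 CPM against 34.74 to 38.27 CPM. Mouse 4 at 30000 fibers was low in Fen1, at 15.03 CPM against 18.7 to 18.84 CPM. Control mouse 1 was high in Rpa3, at 9.95 CPM against 5.34 to 5.77 CPM, and mouse 2 at 12000 fibers was high in Cdc6, at 13.99 CPM against 13 to 13.13 CPM.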

How the results depend on the processing

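Of the 25 members called at 12000 fibers against control, 12 stayed called under every alternative. The count of called members ran from 18 to 29 when 1 library was left out, and was 22 with the DESeq2 Wald test and 23 without the 30000-fiber libraries. With the replicate block for the mouse it was 27, 26 lower and Rpa1 higher, with Mcm3 and Mcm7 gained and Orc6 lost. The block gave 23 calls at 30000 fibers against control (22 without it) and 28 at 30000 against 12000 fibers (25 without it). At 30000 fibers against control the median member changed sign: 0.05 as reported, -0.14 with the second highest transcript, 0.15 with the length offset, and -0.035 to 0.17 when 1 library was left out, the highest without control mouse 2 and the lowest without mouse 2 at 30000 fibers. Leaving out that last library gave 12 members higher and 10 lower. The second highest transcript reversed Pold2 (-0.86) and Rfc3 (0.67) at 30000 fibers against control, and Mcm2 (-0.60), Mcm4 (-0.72) and Pold2 (-0.83) at 30000 against 12000 fibers. Rfc3 at 30000 fibers against control was also 0.46 with summed transcripts and 0.49 with the highest coding transcript. The causes were not tested. Counts at 30000 fibers, with a median of 73 a member and library, limit what that group can show.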
